A study of Mus musculus with 86 samples.

Results

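The response of skeletal muscle to dexamethasone (DEX), a synthetic glucocorticoid, was compared between 2 hindlimb muscles. The gastrocnemius (GA) consists mainly of fast fibres. In the soleus (SO) slow fibres are common. Bulk RNA-seq counts were taken from 18 of the 86 libraries of the series, chosen by muscle and treatment in the labels. Male C57BL/6N mice, supplied at 10 weeks of age, received DEX at 25 mg/kg by intraperitoneal injection each day for 10 days, with phosphate-buffered saline by gavage. Non-treated mice received the saline by both routes, and the 4 groups share strain, sex and gavage. GA and SO each had 5 non-treated and 4 DEX libraries, numbered by mouse. Tissue was taken 1 day after the final behavioural tests, at an hour not given in the labels, and each library is a piece of whole muscle that holds fibres, vessels, nerve and connective tissue. The labels do not say that GA and SO libraries of 1 number came from 1 animal, so p-values measure the spread between these libraries. Levels are CPM, the counts of a gene scaled to 1 common library total after TMM normalization. Changes are log2 fold changes ± standard error of DEX against non-treated libraries, n = 4 and 5 in each muscle. The difference is the SO change less the GA change. Adjusted p-values are those of the edgeR quasi-likelihood test, with the Benjamini-Hochberg method applied across 14453 genes (of 42807 listed), and a gene was called changed below 0.05.

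Glucocorticoids enter cells and bind a receptor that moves to the nucleus, where it binds DNA directly at paired hexamers or acts through other factors. In muscle this raises some genes of amino acid and lipid metabolism, represses genes of inflammation and growth, and over days leads to loss of mass, classically more in fast than in slow fibres. Glucocorticoids also shift the circadian clock of peripheral tissues, a loop in which the activator ARNTL (BMAL1) with its partners drives the period genes and REV-ERB repressors that switch it off.

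The total count of a library was 27075125 to 32143680 for GA, and for SO it was 18751740 to 31527277. The muscles matched their labels: the fast myosin gene Myh4 stood between 41860 and 53520 CPM in the GA libraries and at no more than 1878 in SO. Within SO, Myh4 was not at 1 level, since DEX libraries 1 to 4 read 871, 750, 1878 and 1142 CPM, non-treated replicate 1 read 1130, and non-treated replicates 2 to 5 read 115, 94.9, 43.8 and 27.8. The part of this in the differences below was not tested. SO DEX replicate 4 stood apart, with a median correlation of 0.953 with its own group where every other library had at least 0.985. It also held the macrophage markers at a sum of 590 CPM, where the other SO libraries had at most 94.4. Some of the results that move with this library are given with and without it.

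DEX changed 5854 of the 14453 genes in SO (40.5%) and 1544 in GA (10.7%). With each muscle fitted alone, so that each had its own estimate of the spread, the counts were closer, 4129 in SO and 2720 in GA. The difference between the muscles passed for 3458 genes (23.9%), of which 1367 were higher (9.46%) and 2091 lower (14.5%) in SO relative to GA. Across all genes tested the changes in GA and SO had the same sign for 53.5%, with Pearson r = 0.309 and Spearman rho = 0.172, as a description over genes that share libraries. Without SO DEX replicate 4 the calls in GA came to 2476 and the differences to 4013, and without GA DEX replicate 3 the calls in GA came to 1011.

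**Figure D1:**
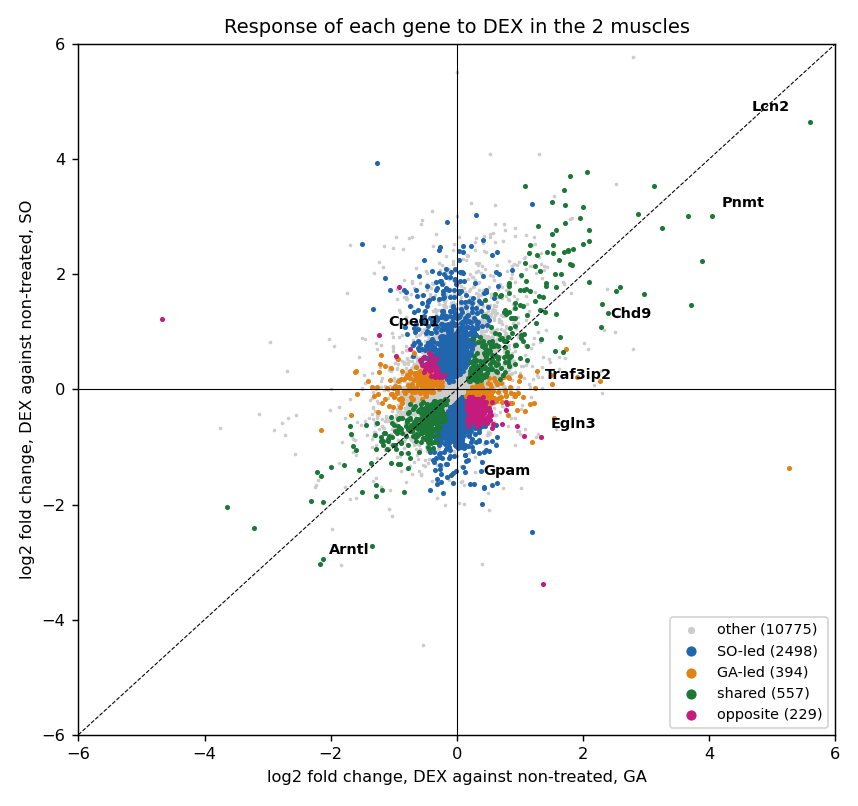
Change with DEX in GA (x axis) against change in SO (y axis), both in log2, for each gene tested, coloured by response class, with some named genes marked. Shared genes lie in the lower left and upper right quadrants and opposite genes in the other two, SO-led genes stretch along the y axis and GA-led genes along the x axis. The axes end at 6 on either side and 5 genes lie outside them.

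Genes were split by these 3 tests. A response was called shared when a gene passed in both muscles in 1 direction, which held for 557 genes (3.85% of those tested), 239 of them up and 318 down. Among them 489 (3.38%) had no difference in size that passed, and 68 (0.47%) had one, larger in GA in 23 and in SO in 45. It was called opposite when a gene passed in both muscles in unlike directions, which held for 229 genes (1.58%). It was called SO-led for 2498 genes (17.3%) that passed in SO and not in GA with the difference itself passing, and GA-led for 394 genes (2.73%) in the reverse case. A further 2570 genes passed in SO alone (17.8%) and 364 in GA alone (2.52%) without a difference that passed, so about equal shares of the genes called in 1 muscle, 49.3% in SO and 52% in GA, were shown to differ from the other muscle. For 269 genes (1.86%) the difference passed and neither muscle did. Shared genes made up 36.1% of the GA calls and 9.51% of the SO calls, and opposite genes 14.8% and 3.91%. The class was kept when any 1 of the 18 libraries was left out for 235 shared, 83 opposite, 1356 SO-led and 108 GA-led genes. The counts moved by more than 1.5 times with some single libraries. Shared genes numbered 839 without SO DEX replicate 4 and 367 without GA DEX replicate 2. The genes up in GA and down in SO numbered 292 without SO DEX replicate 4, and 117, 115 and 101 without GA non-treated replicate 2, GA DEX replicate 2 and GA DEX replicate 3. Those down in GA and up in SO numbered 106 without SO DEX replicate 4 and 28 without GA non-treated replicate 1. GA-led genes numbered 253 without GA DEX replicate 3.

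Opposite responses were small in most genes. The 185 genes up in GA and down in SO had median changes of 0.28 in GA and -0.30 in SO, and the 44 genes down in GA and up in SO had medians of -0.41 and 0.38. At least a 2-fold change in both muscles was seen for 88 of the shared genes and for 2 of the opposite ones, Cacna1i and Gm17139, whose class held in 13 and 12 of the 18 fits that leave out 1 library. When each change was tested against a fold of 1.2 in place of no change, 8 opposite genes remained called: Egln3, Cpeb1, Pde4d, Rcsd1, Sln, Col5a3, Adrbk2 and Tmem38b, all of which kept the class without any single library. They are described next, those up in GA first. Over all genes tested, DEX and non-treated libraries did not overlap for 17.9% in GA and 27.2% in SO. In genes picked by these tests a lack of overlap is a description and not separate evidence.

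Egln3 encodes an oxygen-dependent prolyl hydroxylase that marks the hypoxia-inducible factor for degradation and is itself a target of that factor. In GA it read 37.2, 32.8, 37.6, 37.7 and 32.2 CPM in the 5 non-treated libraries and 104, 79.8, 75.4 and 100 CPM in the 4 DEX libraries. In SO it read 100, 85.3, 88.9, 91.2 and 107 CPM without and 55.6, 49.5, 58.7 and 49.1 CPM with DEX. The groups did not overlap in either muscle, and DEX reversed their order, so that Egln3 was the higher in SO in non-treated mice and the higher in GA after DEX. It rose by 1.34 ± 0.10 in GA (adjusted p = 1.37e-07, edgeR) and fell by 0.83 ± 0.10 in SO (adjusted p = 9.18e-06). The difference of -2.17 ± 0.14 (95% interval -2.46 to -1.88, adjusted p = 4.2e-08) lay between -2.22 and -2.10 over 30 alternative fits. Of 17 genes of oxygen sensing, Egln3 included, 2 had a higher and 3 a lower difference, near the shares over all genes (9.46% and 14.5%). Without SO DEX replicate 4 these were 4 and 3, where 1674 and 2339 of 14580 genes had a higher and a lower one. The hydroxylase gene Egln2 was GA-led (0.29 ± 0.06 in GA, 0.02 ± 0.06 in SO), Ndrg1 was SO-led and up (0.90 in SO, -0.07 in GA), and the glucose transporter gene Slc2a1 was SO-led and up (0.64 in SO, -0.24 in GA). Egln3 lies on chromosome 12, 54178981 to 54203860, minus strand (GRCm38). The 250 bases before its start in the RefSeq annotation of GRCm38.p6, chr12:54203875-54204124 on the minus strand, are shown because they hold the core of the element that the hypoxia-inducible factor binds, ACGTG, in capitals.
Egln3: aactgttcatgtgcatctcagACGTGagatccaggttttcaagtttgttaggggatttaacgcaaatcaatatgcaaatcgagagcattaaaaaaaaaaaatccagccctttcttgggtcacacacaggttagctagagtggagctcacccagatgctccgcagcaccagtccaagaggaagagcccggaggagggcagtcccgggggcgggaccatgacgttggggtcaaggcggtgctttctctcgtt
ACGTG, searched on both strands, lies inside the E-box CACGTG and is common: it was present in 16.6% of 32851 promoter windows, in 21% of those of genes tested, in 29.8% of the 168 windows of genes up in GA and down in SO, and in 12.2% of the 41 windows of the reverse pattern. A match is a description of the letters and not a bound site.

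Pde4d, which encodes a phosphodiesterase that breaks down cyclic AMP, read 55.5, 59.5, 59.2, 59 and 48.6 CPM in non-treated GA and 78.9, 79.1, 84.1 and 89.8 CPM in DEX GA. The SO libraries read 23.8, 23.8, 22.4, 28.7 and 27.3 CPM without and 17.1, 12.8, 18.1 and 15.5 CPM with DEX. The groups were apart in both muscles, with a rise of 0.56 ± 0.09 in GA and a fall of 0.66 ± 0.10 in SO (difference -1.22 ± 0.13, adjusted p = 2.02e-05, edgeR). Tmem38b, which encodes a cation channel of the sarcoplasmic reticulum that supports calcium release, went from 69.4, 70.7, 72.4, 70.7 and 75.4 to 108, 117, 100 and 94.3 CPM in GA. In SO it went from 95.5, 99.9, 101, 110 and 107 to 79.9, 76.2, 66.4 and 78.1 CPM. These groups too were apart, and DEX brought GA above SO, with a difference of -1.001 ± 0.096 (adjusted p = 7.87e-06). Rcsd1, which encodes a protein that binds actin capping protein, rose by 0.50 ± 0.08 in GA and fell by 0.47 ± 0.08 in SO, without overlap in either muscle (difference -0.96 ± 0.11, adjusted p = 3.58e-05).

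Sln encodes sarcolipin, a small membrane protein that uncouples the calcium pump of the sarcoplasmic reticulum from calcium transport. Its level in non-treated mice was 1.67, 2.60, 2.04, 2.44 and 1.66 CPM in GA and 74.4, 109, 107, 68 and 102 CPM in SO. With DEX it was 4.00, 4.03, 4.22 and 3.90 CPM in GA and 50.7, 72, 51.5 and 63 CPM in SO. The GA groups did not overlap, whereas in SO DEX replicate 2 lay above non-treated replicate 4. Sln rose by 0.95 ± 0.19 in GA (adjusted p = 0.00366) and fell by 0.63 ± 0.14 in SO (adjusted p = 0.00186, edgeR), and the difference of -1.58 ± 0.24 (adjusted p = 0.000229) passed in 29 of 30 alternative fits.

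Among the genes of the reverse pattern that passed against a fold of 1.2, Cpeb1 had the largest difference. It encodes a protein that binds a sequence element in mRNAs and sets the length of their poly(A) tails and so their translation. In GA its level fell from 68.4, 71.8, 52.8, 66.2 and 70 CPM to 25.6, 28, 28.3 and 30.2 CPM. In SO it rose from 8.82, 10, 10.6, 9.72 and 8.47 CPM to 15.8, 18.4, 17.6 and 21.7 CPM. The muscles, far apart in non-treated mice, thus came closer, and the groups did not overlap in either. The changes were -1.23 ± 0.10 in GA (adjusted p = 4.02e-07) and 0.95 ± 0.10 in SO (adjusted p = 3.76e-06), and their difference was 2.18 ± 0.14 (95% interval 1.89 to 2.48, adjusted p = 4.2e-08, edgeR). Cpeb1 lies on chromosome 7, 81347026 to 81455465, minus strand (GRCm38).

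Col5a3, which encodes a chain of fibrillar type V collagen, read 34.5, 30.4, 26.1, 33.3 and 25.7 CPM without and 16.9, 15.2, 17.1 and 12.4 CPM with DEX in GA. Levels in SO were 19.9, 19.9, 19.1, 17.6 and 16.7 CPM without and 35, 21.2, 22.2 and 33.5 CPM with DEX. The SO groups were apart, but DEX replicates 2 and 3 lay close to the non-treated libraries. The difference was 1.54 ± 0.20 (adjusted p = 7.78e-05, edgeR). Adrbk2, which encodes a kinase that desensitises G protein-coupled receptors, fell by 0.53 ± 0.09 in GA, from 8.04 to 9.86 CPM in non-treated to 5.90 to 7.25 CPM in DEX libraries. In SO it rose by 0.57 ± 0.09, from 2.79 to 3.08 CPM to 4.14 to 4.97 CPM, with a difference of 1.10 ± 0.13 (adjusted p = 3.39e-05).

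**Figure D2:**
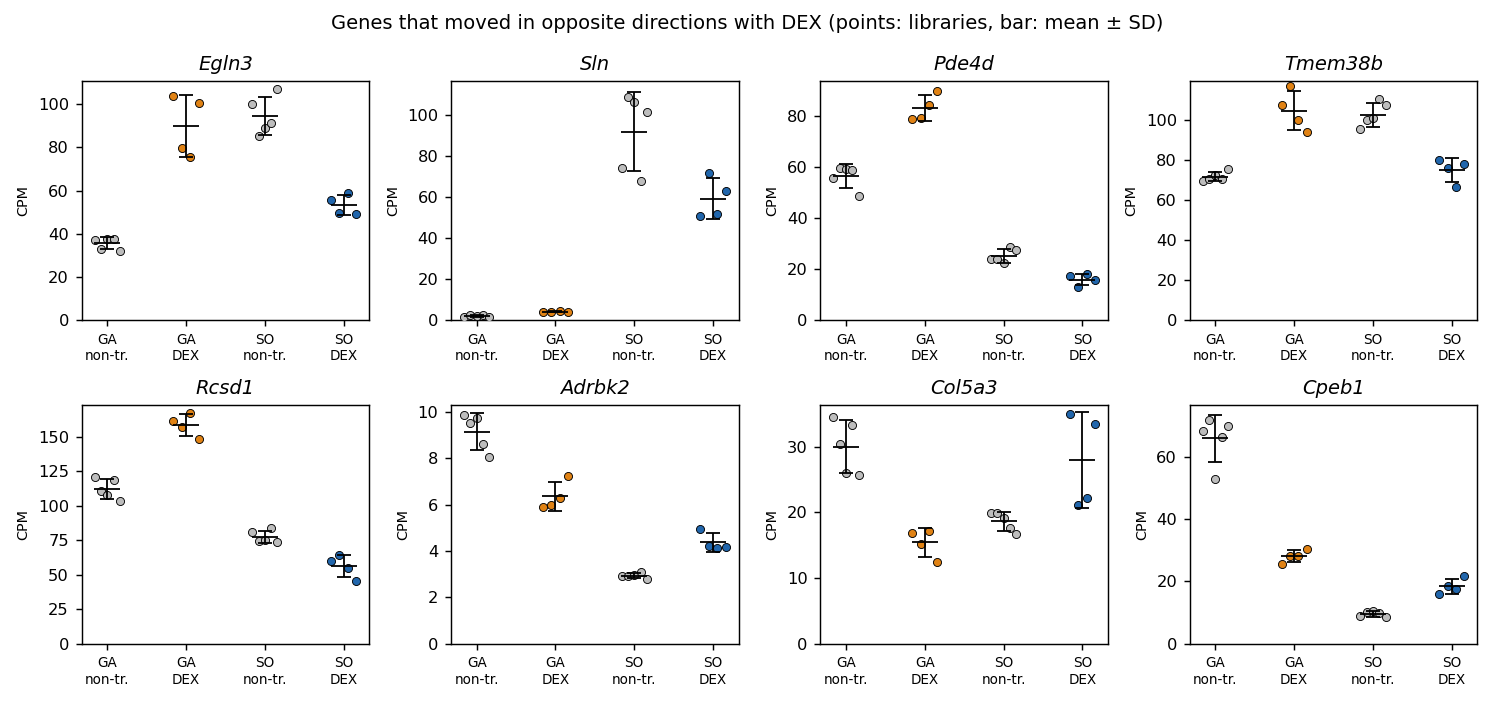
Level in CPM (y axis, from 0) of the 8 opposite genes that passed when tested against a fold of 1.2, in GA and SO without and with DEX (x axis). Points are libraries and bars the mean ± SD of 5 non-treated or 4 DEX libraries. Egln3, Pde4d, Tmem38b, Rcsd1 and Sln were higher with DEX in GA and lower in SO, and Cpeb1, Col5a3 and Adrbk2 the reverse.

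Some further opposite genes are given as examples. Pdp1, which encodes the phosphatase that activates pyruvate dehydrogenase, rose by 0.57 ± 0.11 in GA and fell by 0.60 ± 0.11 in SO. The ubiquitin ligase gene Nedd4 rose by 0.28 ± 0.06 and fell by 0.34 ± 0.06, the autophagy kinase gene Ulk2 by 0.36 and 0.29, and the lipid-sensing receptor gene Ppard by 0.32 ± 0.07 and 0.35 ± 0.08. In the reverse pattern, the endothelial transcription factor gene Erg fell from 8.23, 6.76, 7.03, 8.13 and 9.02 CPM to 6.21, 5.97, 5.55 and 5.33 CPM in GA. In SO it rose from 11.2, 9.91, 9.14, 12.7 and 9.40 CPM to 14.4, 17, 16.4 and 16.7 CPM. Neither pair of groups overlapped, and the difference was 1.07 ± 0.15 (adjusted p = 0.000116, edgeR). The endothelial adhesion gene Esam fell by 0.37 ± 0.07 in GA and rose by 0.37 ± 0.07 in SO. Pxdn, which encodes a peroxidase that crosslinks collagen IV, fell by 0.41 ± 0.09 and rose by 0.60 ± 0.08, and the laminin receptor gene Itga6 fell by 0.43 ± 0.08 and rose by 0.52 ± 0.08.

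Clock genes with strong shared responses included the activator genes Arntl and Npas2, which fell, and Per2, Ciart and Dbp, which rose. Because the labels give no hour of collection, an effect of DEX and one of the hour on clock genes cannot be told apart. Of 20 listed clock genes, 12 rose and 2 fell in GA (5.64% and 5.04% of all genes did), 8 rose and 5 fell in SO (18.6% and 21.9%), and 9 were shared. Arntl, the activator, read 24.8, 27.7, 12.3, 22.4 and 18.1 CPM without and 4.32, 4.82, 5.59 and 3.96 CPM with DEX in GA. SO had 25.1, 20, 20, 19.1 and 24.3 CPM without and 3.23, 2.16, 1.98 and 3.31 CPM with DEX. It fell without overlap in both muscles, by 2.17 ± 0.20 in GA and 3.02 ± 0.22 in SO. The larger fall in SO passed narrowly (difference -0.85 ± 0.29, adjusted p = 0.042, edgeR) and in 9 of the 18 fits that leave out 1 library. Its partner gene Npas2 fell by 3.21 ± 0.33 and 2.41 ± 0.29, with a difference that did not pass (0.80, 95% interval -0.15 to 1.75, adjusted p = 0.204).

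The repressor gene Per2 read 2.80, 2.66, 9.86, 3.94 and 7.93 CPM without and 16.6, 15.9, 18.8 and 24.1 CPM with DEX in GA. In SO it read 2.57, 3.71, 4.12, 4.04 and 2.90 CPM without and 12.9, 15.7, 21.6 and 12.6 CPM with DEX. Groups were apart in both muscles, and in GA the non-treated replicates 3 and 5 were the highest. The rises of 1.80 ± 0.30 and 2.18 ± 0.32 differed by 0.38 (95% interval -0.54 to 1.302, adjusted p = 0.555), an interval that leaves room for a difference of more than 2-fold. Ciart, which encodes a repressor of the loop, read 1.28, 1.15, 3.85, 2.40 and 7.26 CPM without and 9.55, 14.9, 17.4 and 9.33 CPM with DEX in GA. The SO libraries read 1.59, 2.04, 1.85, 2.34 and 0.966 CPM without and 10.1, 12.9, 9.80 and 7.59 CPM with DEX. Ciart too was apart in both muscles, with rises of 2.00 ± 0.38 and 2.52 ± 0.41, and 20.8% of its sequence words of 31 bases also occur in other genes. In non-treated GA, replicates 3 and 5 were the lowest of Arntl and the highest of Per2 and Ciart. The remaining shared clock genes were Per3, Nr1d2, Dbp, Hlf and Usp2, all up, although Usp2 kept its class in 6 of 18 fits. The E-box CACGTG, the element bound by ARNTL and its partners (searched on both strands, its own reverse complement), was found in 6 of 22 promoter windows of the clock list (27.3%), against 6.02% of all 32851 windows and 8.15% of those of genes tested. The window of Ciart, chr3:95882229-95882478 on the minus strand, GRCm38.p6 in RefSeq, is shown because it holds 3 of them, in capitals.
Ciart: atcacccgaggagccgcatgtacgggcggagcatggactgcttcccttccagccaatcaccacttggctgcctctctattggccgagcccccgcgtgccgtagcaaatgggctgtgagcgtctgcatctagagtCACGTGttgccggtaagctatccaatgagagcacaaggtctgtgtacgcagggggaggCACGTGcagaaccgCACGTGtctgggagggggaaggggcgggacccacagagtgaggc

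Not every clock gene was shared. Of the 20, 5 had a lower difference (14.5% of all genes did) and none a higher one (9.46%). Among the 20, 1 was opposite, up in GA and down in SO (1.58% of all genes were opposite), and is not described here. Rora, which encodes a nuclear receptor of the loop, was GA-led (0.54 ± 0.10 in GA, -0.15 ± 0.10 in SO), as was the repressor gene Cry2 (0.73 and 0.22), which kept its class in 6 of 18 fits. Nfil3, which encodes a repressor that competes with the DBP family, was SO-led (0.05 ± 0.20 in GA, -0.92 ± 0.21 in SO, difference -0.97 ± 0.29, adjusted p = 0.0217, passing in 27 of 30 alternative fits). Its SO groups overlapped, since non-treated replicate 4 at 11.1 CPM lay within the DEX range of 7.58 to 11.3.

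**Figure D3:**
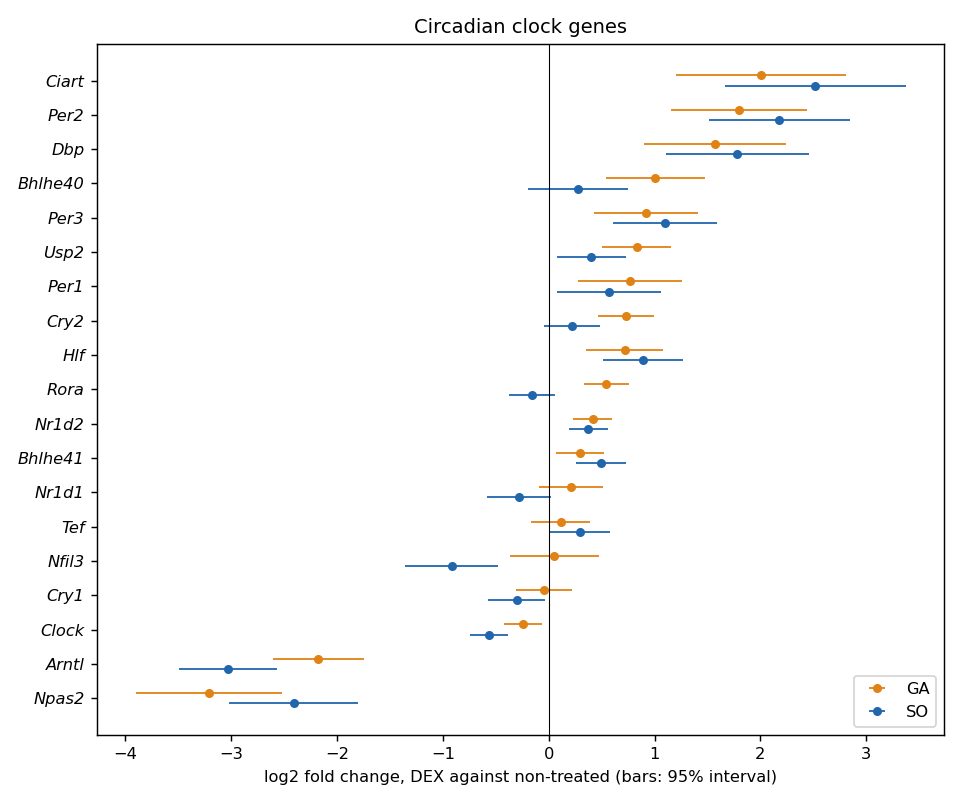
Change with DEX in log2 (x axis) of clock genes (y axis) in GA and SO, as estimate and 95% interval from the edgeR fit. The 1 listed clock gene of the opposite class is not drawn. Arntl and Npas2 lie far to the left and Per2, Ciart and Dbp far to the right in both muscles, while Rora and Nfil3 lie away from 0 in 1 muscle each.

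Of 28 listed genes of the glucocorticoid receptor and its targets, 3 were shared (3.85% of all genes were), Pnmt, Gnmt and Chd9, and the rise of each was larger in GA. Pnmt, which encodes the enzyme that makes adrenaline, read 1.03, 1.41, 1.47, 0.984 and 0.846 CPM without and 23.6, 17.8, 17 and 18.2 CPM with DEX in GA. SO had 1.08, 0.680, 1.14, 0.817 and 0.818 CPM without and 7.09, 7.62, 8.83 and 6.08 CPM with DEX. From near equal non-treated levels the DEX libraries of GA all ended above those of SO. The rises were 4.05 ± 0.17 and 3.02 ± 0.17 (difference -1.03 ± 0.25, adjusted p = 0.00646, edgeR, passing in 29 of 30 alternative fits). The chromatin remodeller gene Chd9 went from 36.8, 33, 40.9, 33.3 and 30.2 CPM to 135, 155, 150 and 237 CPM in GA. In SO it went from 34.2, 34, 34.2, 29.1 and 29.6 CPM to 54.6, 55.8, 80.1 and 82.7 CPM. Here again the non-treated levels were alike and the DEX libraries of the 2 muscles were apart (difference -1.20 ± 0.22, adjusted p = 0.000974). Lcn2, which encodes an iron-chelating acute phase protein, rose from 1.28, 0.801, 4.27, 0.802 and 1.34 CPM to 85.2, 67.2, 87.7 and 82.9 CPM in GA. In SO it rose from 1.08, 1.85, 1.39, 0.742 and 0.483 CPM to 22.4, 18.9, 20.6 and 49.8 CPM, the last value being SO DEX replicate 4. The difference did not pass with all libraries (-0.94 ± 0.61, adjusted p = 0.271) and passed without that library (-1.39, adjusted p = 0.0476) or without GA non-treated replicate 3 (-1.61, adjusted p = 0.0334), which had the highest level before DEX.

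Other receptor targets changed in 1 muscle or in neither. Zbtb16, which encodes a transcription factor, was SO-led and down (-0.98 ± 0.17 in SO, -0.02 ± 0.16 in GA, difference adjusted p = 0.00648, edgeR). Ddit4, which encodes an inhibitor of mTOR signalling, was GA-led and down (-1.15 ± 0.19 in GA, -0.16 ± 0.17 in SO, adjusted p = 0.00968). Fkbp5, a chaperone gene of the receptor, and the receptor gene Nr3c1 passed in neither muscle. Tsc22d3, which encodes the leucine zipper protein GILZ, was called SO-led and down at an adjusted p of 0.05 for the difference and kept its class in 3 of 18 fits.

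The ubiquitin ligases that mark muscle proteins for degradation divided by gene. The list also holds conjugating enzyme, deubiquitinase and ubiquitin genes. Of its 23 members, 2 rose and 5 fell in GA (5.64% and 5.04% of all genes did), and 1 rose and 14 fell in SO (18.6% and 21.9%). In 8 the difference was lower and in none higher (14.5% and 9.46%). Without SO DEX replicate 4 it was lower in 11, where 2339 of 14580 genes had a lower difference. Fbxo32 (atrogin-1) read 469, 590, 296, 402 and 862 CPM without and 252, 303, 274 and 139 CPM with DEX in GA. In SO it read 284, 295, 296, 542 and 322 CPM without and 177, 222, 132 and 150 CPM with DEX. It fell in both, by 1.11 ± 0.28 and 1.03 ± 0.28, with an overlap in GA (difference 0.08, 95% interval -0.74 to 0.91, adjusted p = 0.896, edgeR). Trim63 (MuRF1) likewise fell in both, by 0.79 ± 0.17 and 0.54 ± 0.17 (difference 0.26, 95% interval -0.24 to 0.75, adjusted p = 0.448). Trim63 lies on chromosome 4, 134315120 to 134329629, plus strand. Its promoter window, chr4:134314870-134315119 on the plus strand (GRCm38.p6, RefSeq), is shown because it is one of 10 among 32851 windows (0.0304%), and one of 4 among the 13225 of genes tested (0.0302%), with AGAACANNNTGTTC on either strand, in capitals. These letters are the inverted repeat of the glucocorticoid response element less its last base. The whole repeat, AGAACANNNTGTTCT, was in 3 windows and in 1 of genes tested, that of Sgk1, and is not in the window of Trim63.
Trim63: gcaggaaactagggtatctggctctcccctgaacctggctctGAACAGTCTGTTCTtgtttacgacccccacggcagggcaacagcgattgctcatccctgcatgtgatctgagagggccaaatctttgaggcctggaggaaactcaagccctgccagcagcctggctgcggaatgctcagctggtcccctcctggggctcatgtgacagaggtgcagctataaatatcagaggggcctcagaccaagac
The other 3 windows of genes tested belonged to Sgk1, which passed in neither muscle, and to Pot1b with 2 windows, which rose in both (0.65 ± 0.16 and 0.52 ± 0.16).

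Trim55 (MuRF2), a relative of Trim63, was SO-led. Its level in GA was 49.9, 54.1, 53.3, 54.8 and 46.9 CPM without and 54.8, 54.4, 54.6 and 56.4 CPM with DEX. In SO it was 37.9, 38.5, 39.1, 35.7 and 37.4 CPM without and 24.1, 20.4, 17.4 and 20.6 CPM with DEX. Only the SO groups were apart, and the changes of 0.09 ± 0.07 and -0.87 ± 0.07 differed by -0.96 ± 0.10 (adjusted p = 1.5e-05, edgeR). The ligase genes Fbxo30, Asb4 and Ubr2, the conjugating enzyme gene Ube2g1 and the deubiquitinase gene Usp19 were SO-led and down as well, Fbxo30 in 12 of 18 fits, and Asb2 fell in both muscles. Of 30 autophagy and lysosome genes, 5 rose and none fell in GA (5.64% and 5.04% of all genes), and 2 rose and 16 fell in SO (18.6% and 21.9%). In 13 the difference was lower and in none higher (14.5% and 9.46%), at a median of -0.31 over the 30 against 0.02 over all genes. Atg9a, which encodes the membrane scramblase that seeds autophagosomes, went from 106, 98.2, 97.2, 102 and 96.4 CPM to 66.2, 64.7, 59.9 and 49.9 CPM in SO. In GA it read 170 to 179 CPM without and 171 to 197 CPM with DEX (difference -0.81 ± 0.10, adjusted p = 3.95e-05, passing in 29 of 30 alternative fits), and 32% of its sequence words also occur in other genes. The mitophagy gene Bnip3 (-0.60 in SO, 0.22 in GA), the receptor gene Calcoco1 (-0.62 and 0.04), the kinase gene Ulk1 (-0.63 and -0.05, in 10 of 18 fits) and the lysosomal genes Ctsd, Lamp1 and Lamp2 were also SO-led. Tfeb, which encodes the transcription factor that drives lysosomal genes, was GA-led and up (0.34 ± 0.07 in GA, -0.16 ± 0.07 in SO).

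Of 30 genes of fatty acid use, 19 fell and 3 rose in SO (21.9% and 18.6% of all genes did), against 1 up and none down in GA (5.64% and 5.04%). The difference was lower in 13 and higher in 1, Ucp2 (14.5% and 9.46% of all genes), at a median of -0.37. Among them were the carnitine transferase genes Cpt1b (-0.63 in SO, 0.04 in GA) and Cpt2 (-0.60 and -0.01), and the oxidation enzymes Acadm (-0.86 and -0.17) and Hadha (-0.73 and -0.12). Of 28 glycolysis and glycogen genes, 13 fell and 2 rose in SO (21.9% and 18.6% of all genes), 1 fell in GA (5.04%), and the difference was lower in 10 and higher in 1, Hk1 (14.5% and 9.46%). The other 13 passed in SO in neither direction. Among those with a lower difference, Ppp1r3a, which encodes the muscle subunit that targets a phosphatase to glycogen, went from 170, 151, 148, 169 and 167 CPM to 93.7, 95.5, 95.8 and 76.4 CPM in SO. In GA it read 360 to 408 CPM without and 344 to 423 CPM with DEX, so only the SO groups were apart (difference -0.86 ± 0.11, adjusted p = 5.96e-05, edgeR, passing in 29 of 30 alternative fits). The synthase gene Gys1 (-0.85 in SO, 0.08 in GA) and the branching enzyme gene Gbe1 (-0.76 and -0.03) had the same pattern. So did the phosphorylase gene Pygm and the phosphorylase kinase gene Phkb (-0.65 each in SO, and -0.01 and -0.05 in GA). Pdpr, which encodes a regulator of pyruvate dehydrogenase phosphatase, fell from 18.2, 15.1, 14.3, 18.6 and 12.9 CPM to 7.13, 5.91, 5.18 and 4.42 CPM in SO. It stayed between 53.3 and 70.1 CPM in all 9 GA libraries (difference -1.41 ± 0.17, adjusted p = 3.95e-05).

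Gpam, which encodes the enzyme of the first step of triglyceride synthesis, had the largest SO-led fall among the genes described. The SO libraries read 27.8, 32.2, 29.7, 58.3 and 27.8 CPM without and 14, 12.7, 10.1 and 8.53 CPM with DEX. In GA it read 62.3, 72.6, 59.3, 70.9 and 82.4 CPM without and 86, 81.2, 93 and 76.1 CPM with DEX, an overlapping pair. The changes were -1.64 ± 0.20 in SO and 0.27 ± 0.18 in GA (difference -1.92 ± 0.27, adjusted p = 0.000135, edgeR). Gpam was not typical of its list. Of 18 tested genes of fatty acid and triglyceride synthesis, 11 rose and 3 fell in SO (18.6% and 21.9% of all genes). In GA 6 rose and none fell (5.64% and 5.04%), and the difference was higher in 3 and lower in 3 (9.46% and 14.5%). Of 23 cholesterol synthesis genes, 10 rose and 1 fell in SO (18.6% and 21.9% of all genes), and 1 rose and 1 fell in GA (5.64% and 5.04%). The difference was higher in 7 and lower in none (9.46% and 14.5%). Sqle, which encodes squalene epoxidase, rose in SO from 1.41 to 1.75 CPM to 1.92 to 5.25 CPM and read 1.68 to 3.39 CPM in all GA libraries (difference 1.33 ± 0.32, adjusted p = 0.00699). The regulators Srebf2 (0.46 in SO, -0.08 in GA) and Insig1 (0.69 and 0.06) were SO-led as well. Of 76 cytosolic ribosomal protein genes, 67 rose and none fell in SO (18.6% and 21.9% of all genes) and 4 rose in GA (5.64%), but the difference passed in 16, all higher (9.46%), so for most of them a difference was not shown. That count ran from 6 to 22 over the fits that leave out 1 library.

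GA-led responses were fewer and included receptors and signalling genes. Traf3ip2, which encodes an adaptor of the interleukin 17 receptor, read 4.61, 5.38, 4.53, 4.63 and 4.93 CPM without and 11.4, 11.2, 12 and 11.1 CPM with DEX in GA. Levels in SO were 2.33, 3.02, 2.38, 3.93 and 2.60 CPM without and 2.60, 2.69, 2.94 and 3.31 CPM with DEX. The GA groups were widely apart and the SO groups overlapped (1.25 ± 0.12 and 0.02 ± 0.13, difference -1.22 ± 0.18, adjusted p = 0.000197, edgeR). Exons of Traf3ip2 overlap those of a gene on the other strand. Acvr1b, a type I receptor of activin and myostatin, rose from 51 to 62.8 CPM to 82.4 to 109 CPM in GA and read 12.7 to 19.4 CPM in all SO libraries (0.76 ± 0.10 and -0.01 ± 0.11, adjusted p = 0.00144). The bone morphogenetic protein receptor gene Bmpr1a was GA-led and up (0.51 ± 0.07 and -0.17 ± 0.07), and so was Mylk2, which encodes the myosin light chain kinase of skeletal muscle (0.77 ± 0.12 and -0.11 ± 0.12). In the same pathway Smad3, which carries the myostatin signal to the nucleus, was SO-led and down, from 71.4, 49.9, 51.6, 68.5 and 56.6 CPM to 28.1, 24, 27.2 and 28.8 CPM. In GA it read 92.5 to 122 CPM without and 97.6 to 134 CPM with DEX (difference -1.27 ± 0.17, adjusted p = 7.58e-05). As a list, the 28 genes of myostatin, activin and Smad signalling were not shifted to 1 side. The difference was higher in 3 and lower in 5 (9.46% and 14.5% of all genes), at a median of 0.12. Rictor, a subunit of mTOR complex 2, was GA-led and down (-0.50 in GA, 0.17 in SO), while Mtor (-0.28 in SO, 0.17 in GA), Rptor and the insulin receptor substrate gene Irs1 (-1.02 and -0.15) were SO-led and down. Over the 21 genes of IGF and mTOR growth control, 3 had a higher and 6 a lower difference (9.46% and 14.5% of all genes), at a median of -0.09.

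**Figure D4:**
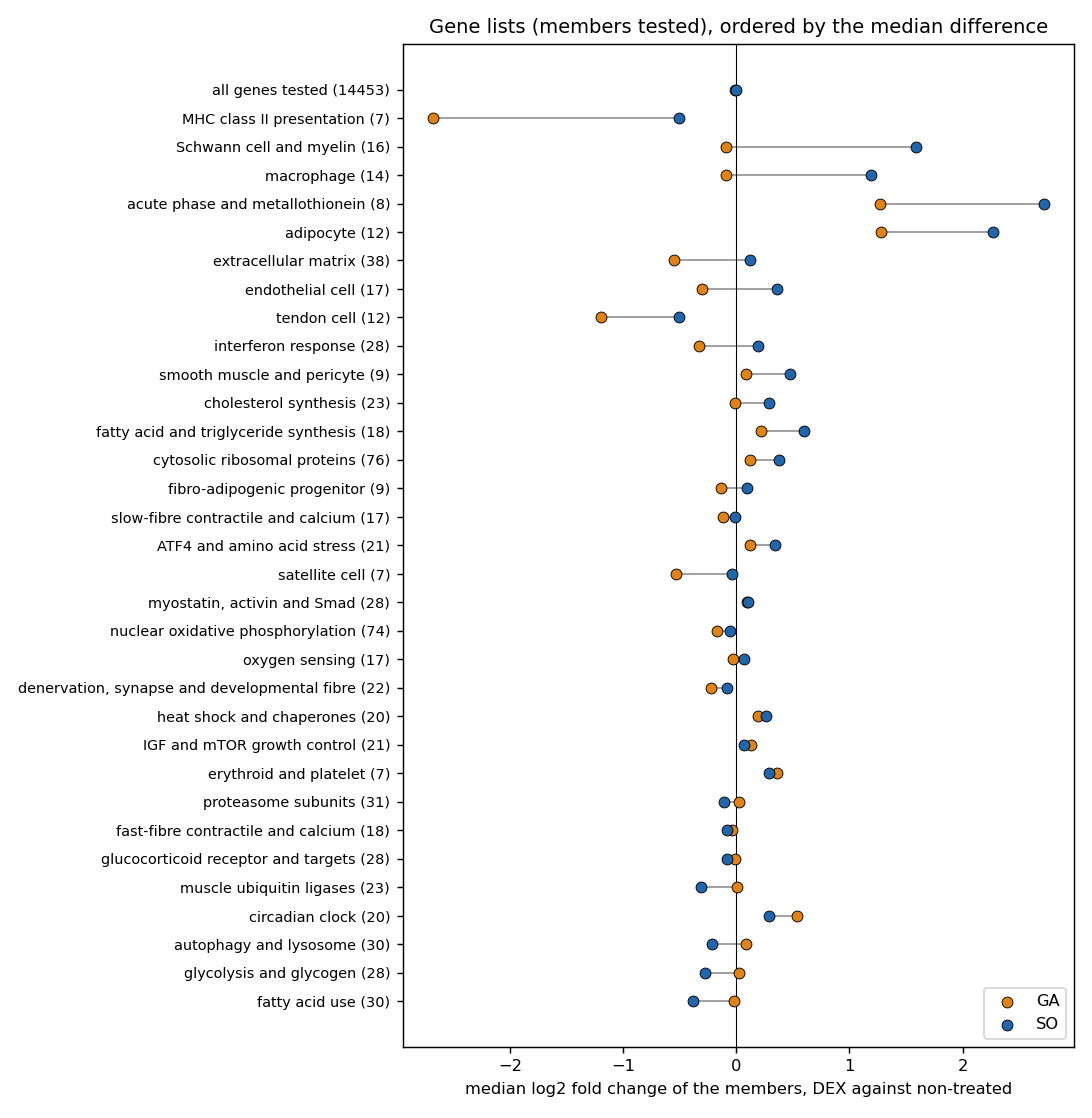
Median log2 change with DEX of the tested members of each gene list in GA and in SO (x axis), with the lists on the y axis. Fatty acid use, glycolysis and autophagy lie near 0 in GA and below 0 in SO, and the extracellular matrix list lies at -0.55 in GA and 0.12 in SO (-0.07 in SO without SO DEX replicate 4).

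Extracellular matrix genes had a higher difference in 21 of 38 and a lower one in none (9.46% and 14.5% of all genes), at a median of 0.82. In GA 1 rose and 18 fell (5.64% and 5.04% of all genes). In SO 12 rose and 6 fell (18.6% and 21.9%) at a median change of 0.12. Without SO DEX replicate 4 the SO counts were 11 and 10 at a median of -0.07, so the direction of the SO median turned on that library. The median difference without it was 0.58, with 20 higher and none lower. They divided into 3 patterns. The fibrillar collagen genes Col1a1 (-1.67 in GA, -0.77 in SO), Col1a2 (-1.44 and -0.61) and Col3a1 (-1.70 and -0.64) fell in both muscles and further in GA. Col5a1, Col5a2, Col6a3, Col15a1, Fbn1, Nid1 and Mmp14 were GA-led and down. The basement membrane genes Col4a2 (0.56 in SO, -0.40 in GA), Lama4 (0.84 and -0.02) and Lamb1 (0.53 and -0.21), with Sparc (0.72 and -0.12), were SO-led and up, and Col4a1 was opposite (-0.58 ± 0.15 in GA, 0.52 ± 0.15 in SO). Lama4 had the smallest adjusted p of the list for the difference (0.86 ± 0.07, adjusted p = 1.92e-06, edgeR). The gelatinase gene Mmp2 fell by like amounts in both (-0.97 and -0.96).

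Markers of endothelial cells moved with the basement membrane genes. Of 17, 9 rose and 1 fell in SO (18.6% and 21.9% of all genes), none rose and 4 fell in GA (5.64% and 5.04%), and 15 had a higher difference (9.46%), at a median of 0.61. Their summed level ran from 506 to 524 CPM in non-treated and 430 to 446 CPM in DEX libraries of GA, and from 562 to 716 and 733 to 964 CPM in SO, with no overlap in either muscle. Each of the 17 had counts in at least 1 of the 18 libraries. In bulk tissue more cells of a type and more RNA per cell cannot be told apart, and the part of these sums in the matrix results was not tested. Aplnr, the apelin receptor gene of these cells, fell in both muscles (-2.16 ± 0.18 in GA, -1.51 ± 0.17 in SO) and was the 1 member that fell in SO.

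Schwann cell and myelin markers, the genes of the cells that sheathe nerve, rose in SO in 16 of 16 (18.6% of all genes) and passed in none in GA, and the difference was higher in 10 (9.46%). Libraries of SO did not share this rise. The summed level was 87.2 to 169 CPM in the 5 non-treated libraries and 737, 135, 660 and 84 CPM in SO DEX replicates 1 to 4, so replicates 1 and 3 were high and replicates 2 and 4 lay among the non-treated ones. GA ran from 144 to 294 CPM in both groups together. The count of members with a higher difference ran from 3, without GA DEX replicate 3, to 15, without SO DEX replicate 2 or replicate 4.

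Antigen presentation and macrophage genes turned on SO DEX replicate 4. Genes of major histocompatibility complex class II fell in GA in 4 of 7 (5.04% of all genes) and passed in none in SO, and 1 of 7 had a higher difference (9.46%). Their summed level in GA was 46.7, 60.7, 85.1, 56.6 and 74.4 CPM without and 9.48, 14.2, 11.1 and 7.83 CPM with DEX. In SO it was 27.4, 77.8, 76.6, 36.6 and 32.5 CPM without and 10.8, 8.11, 9.09 and 115 CPM with DEX, the last in replicate 4. Without that library 7 fell in GA, 5 fell in SO and none differed, with a median difference of 0.05 in place of 2.18. Macrophage markers rose in SO in 7 of 14 with all libraries (18.6% of all genes) and in none without replicate 4. In its absence 21 in place of 3 of 74 nuclear oxidative phosphorylation genes and 7 in place of 1 of 12 adipocyte markers had a higher difference. The matrix and endothelial counts of a higher difference were then 20 and 15, and the autophagy count of a lower one was 11. Over all 14580 genes tested in that fit, the difference was higher for 1674 and lower for 2339. The changes were down for 1237 genes in GA, and up for 2442 and down for 3190 in SO.

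**Figure D5:**
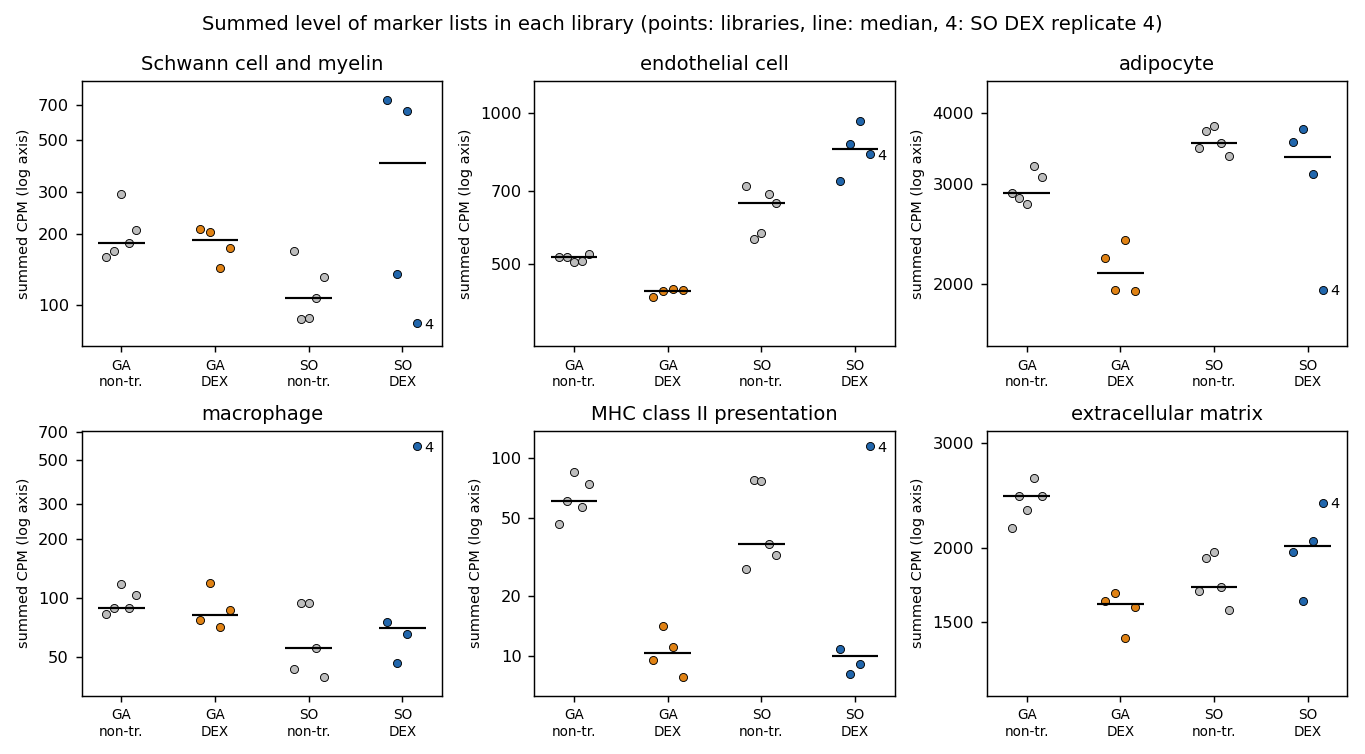
Summed CPM (y axis, log scale) of 6 marker lists in each library of the 4 groups (x axis). Points are libraries, lines are medians, and the number 4 marks SO DEX replicate 4. This library holds 590 CPM of macrophage and 115 CPM of class II genes, Schwann markers are high in 2 of 4 SO DEX libraries, and endothelial markers do not overlap between groups in either muscle.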

How the data were processed

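RNA of gastrocnemius and soleus was sequenced as 100-base pairs from directional libraries, per the labels' protocols. The authors deposited expected counts, 1 value for each gene symbol and library, estimated by RSEM 1.3.3. STAR 2.7.3a, Trim Galore 0.6.5 and FastQC 0.11.9 are also named, with build GRCm38, per the submitters' processing notes. Annotation and strand setting are not given in the sources used here. The expected counts were rounded, filtered with filterByExpr on the 4 groups, scaled by TMM and fitted once over 18 libraries with the quasi-likelihood test of edgeR 4.0.16 (R 4.3.3), without a replicate block. Standard errors are the change divided by the root of F. The method was tested on simulated data with a change in SO DEX only. In these data 67, 67 and 66 genes were changed, by 1.5, 2 and 4-fold, and 14216 genes were tested. That is a far smaller share than the 23.9% called here, and no library was made to stand apart. The rates that follow need not hold for the real libraries. Differences of 1.5, 2 and 4-fold were recovered for 34.3%, 50.7% and 92.4% of the changed genes, and 6 of 124 calls (4.84%) were of unchanged genes. A difference that did not pass is therefore not shown to be absent. Total counts of 18751740 to 32143680 limit precision for low genes.

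The members and the 34 gene lists were chosen with earlier results of these data known. Genes named were the largest differences and class members by effect that held without any 1 library, with a mean of 5 CPM in a group, up to 3 members per list and direction, and a panel. Tmem38b, Cacna1i, Gm17139, Pot1b, Sgk1 and further list members were named after their values were seen. Positions are from GENCODE vM21, promoters from RefSeq. In the pool of 164 genes picked by these rules, 24 share over 10% of their 31-base words with other genes. In the same pool 55 overlap exons of an antisense gene, whose reads cannot be told apart if strand was ignored. Alternatives used limma 3.58.1 and DESeq2 1.42.0. Results of some list members are not reported here.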

Additional observations from a re-analysis of the deposited data

Results flagged for a closer look

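The change with DEX differed between the muscles, by a test of the difference itself, for 3458 genes, and 229 genes were called in both muscles in unlike directions. The opposite genes that also passed against a fold of 1.2 had differences (SO minus GA, log2) of -2.17 for Egln3, 2.18 for Cpeb1, -1.58 for Sln, 1.54 for Col5a3, -1.22 for Pde4d, 1.10 for Adrbk2, -1.001 for Tmem38b and -0.96 for Rcsd1.

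Among 144 sets of values searched for a library far from the others of its group, 11 had one, and chance gives about 1 in 20. SO DEX replicate 4 had 590 CPM of macrophage markers, 7.37 CPM of neutrophil markers, 49.8 CPM of Lcn2 and 76.4 CPM of Ppp1r3a. SO DEX replicate 1 had 4.97 CPM of Adrbk2. SO non-treated replicate 4 had 58.3 CPM of Gpam and 542 CPM of Fbxo32, each the highest of its group. In GA, non-treated replicate 3 had 4.27 CPM of Lcn2 and 862 CPM of smooth muscle markers, non-treated replicate 5 had 122 CPM of Smad3, and DEX replicate 4 had 0.342 CPM of lymphocyte markers.

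In the 7 other DEX-treated groups, outside the comparisons above, the lowest group mean of Egln3 in GA was 65.1 CPM and the lowest of Cpeb1 in SO was 13.6 CPM, above the highest non-treated libraries at 38.2 and 10.6 CPM.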

How the results depend on the processing

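With all 86 libraries in the fit the calls were 1282 for the difference, 702 in GA, 253 shared, 26 opposite and up in GA, 11 opposite and down in GA, 969 SO-led and 134 GA-led. With all but 3 libraries of other groups, chosen after seeing the data, they were 2653 in GA and 7208 in SO, 987 shared, 374 and 97 opposite and 646 GA-led. A limma fit with a weight per library, also chosen then, gave 3318 in GA and 5038 in SO, 977 shared, 373 and 128 opposite and 748 GA-led. Fewer calls followed by construction from an adjusted p under 0.01 (difference 1582, GA 616, SO 3825, shared 197, opposite 52 and 13, SO-led 1201, GA-led 142) and from a fold of 1.2 as the null (1094, 302, 2484, 110, 5 and 3, 719, 66, in that order). Each muscle fitted alone gave 2720 in GA and 4129 in SO. Without SO DEX replicate 4 and SO non-treated replicate 1 together, GA had 2490 and the opposite class down in GA 117. DESeq2 gave 308 opposite and up in GA, and no filter on low counts 27 opposite and down in GA. The cause of these shifts was not tested.

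Leaving out 1 library gave 2609 to 4013 differences, 1011 to 2476 calls in GA, 5237 to 5917 in SO, 367 to 839 shared, 101 to 292 opposite and up in GA, 28 to 106 opposite and down in GA, 1986 to 2674 SO-led and 253 to 582 GA-led. Of the differences 39.5% were higher, 37.5% with DESeq2 size factors and 48% with TMM within each muscle, under which 53.8% in place of 45.8% of the SO calls were up. In a pool of 164 genes, no called difference changed sign under any alternative run. Of the values 704 lost and 25 gained the threshold and 4188 did neither. Many genes of the pool were picked because they held without any 1 library, so for them those fits were no separate check. Some genes named above were not in the pool.

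Mouse numbers did not pair the muscles: deviations of same-numbered libraries correlated above 0.1 in 3 of 9 pairs (-0.18 to 0.29), and 2 of 9 matched their own number best. With the number as a fixed replicate block 2852 differences were called, and with it as a random effect 3297.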

Other observations

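Mice of the 7 other groups received the same DEX and then, by gavage, resveratrol or an agent labelled JGT02, JGT03 or JGT04, and their libraries entered only the alternative fits over the whole series. They are set against the same non-treated libraries as before, in 1 scaling with 3 libraries that stand apart left out, so their values are not independent of that reference. Group means of Egln3 ran from 65.1 to 85.3 CPM in GA (non-treated mean 35.8) and from 53.8 to 79.1 CPM in SO (non-treated mean 93.8). Cpeb1 ran from 24.2 to 28.8 CPM in GA (66.4) and from 13.6 to 16.6 CPM in SO (9.47). Tmem38b ran from 98.1 to 118 CPM in GA (72.3) and from 65.9 to 92.9 CPM in SO (102). For these 3 genes all 7 groups lay on the same side of the non-treated mean as the DEX group in both muscles.

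The other opposite genes held in GA in 7 of 7 groups and less evenly in SO. Pde4d, Sln and Adrbk2 lay on the side of the DEX group in 6 of 7 SO groups, a count that takes no account of the spread. Sln means ran from 61.9 to 97.8 CPM, most of them within the range of the non-treated libraries, 67.1 to 109 CPM. Pde4d ran from 11.7 to 27.2 CPM (non-treated libraries 22.4 to 28.3) and Adrbk2 from 2.77 to 3.61 CPM (2.77 to 3.04). Col5a3 did so in 2 of 7, with means of 14.8 to 23 CPM (non-treated 18.5, DEX 28.6). Rcsd1 did so in 1 of 7, with means of 75.5 to 89.9 CPM (non-treated 77.1, DEX 57.4). Of the SO-led genes, Trim55 was on the DEX side in 7 of 7 SO groups and Gpam in 6 of 7. Trim55 means ran from 22.3 to 36.3 CPM (non-treated libraries 35.2 to 39.2) and Gpam means from 16.7 to 37.6 CPM (27.3 to 57.5).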
